A study of Sus scrofa with 4 samples.

Results

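Genes of fatty acid oxidation and of the peroxisome were described by the peaks of histone H4 lysine 12 lactylation (H4K12la) that lay at their ends, in their bodies and within 10 kb. Members were the coding genes of the pig RefSeq annotation (Sscrofa11.1) whose symbol belongs to the families of acyl-CoA dehydrogenases (ACAD), oxidases (ACOX), synthetases (ACSL) and thioesterases (ACOT), carnitine acyltransferases (CPT, CROT, CRAT), the hydratases, dehydrogenases, thiolases and isomerases of beta-oxidation, peroxins (PEX) and fatty acid binding proteins (FABP). The rule gave 66 of 16303 coding genes with a symbol: 21 mitochondrial enzymes, 25 peroxisomal proteins (8 enzymes and 17 peroxins) and 20 proteins that act in the cytosol, at other membranes or in several compartments. The rule used names only and no measured value.

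The study profiled H4K12la, a histone mark that cells derive from lactate, by chromatin immunoprecipitation and sequencing in the liver of sows in late gestation, in 2 groups with low and with high bile acids; the design text calls the low group normal. Each group has 1 immunoprecipitated library, made with the antibody Anti-H4K12la (PTM1411), and 1 input library without antibody, 4 samples in total, labelled as liver, hepatocytes and female. How many animals entered a library, their age and their bile acid levels are not given in the sources used here. As a group is a single library, differences between the livers could not be set against any replicate spread, and none was tested.

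Beta-oxidation shortens fatty acids from the carboxyl end through repeated rounds of dehydrogenation, hydration, a second oxidation and thiolytic cleavage. Mitochondria take up long chains as carnitine esters and oxidise most dietary fatty acids, while peroxisomes begin with an oxidase and handle very long and branched chains as well as the side chain of bile acid precursors. Peroxins build the peroxisome: some insert its membrane proteins, some import its matrix enzymes and some divide it. In the liver both routes are among the known targets of the fatty acid receptor PPAR alpha.

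The data analysed were 2 lists of peaks, 1 for each immunoprecipitated library, called by the authors against the input. The high list held 28283 peaks and the low list 5735, with median folds of 2.90 and 2.98. Fold is the enrichment that the authors' caller gave at the summit, relative to the expected background, and q is its adjusted p-value for that peak. Fold was solved with 1 added to both the scaled fragment number and the expected one, so it lies below their plain ratio. Fragment numbers at the summit, recovered from the fold and the p-value, had medians of 9 (high) and 10 (low). Since the high list is so much longer, the main counts of members are set beside the percentage of all coding genes with a peak of the same kind. The markers of other cell types could be read only as peaks, not as RNA levels: of 15 hepatocyte markers 1 (TTR) had a high-list peak at a gene end, of 10 Kupffer and myeloid markers 0, of 5 cholangiocyte markers 1 (SCTR), of 7 endothelial markers 1 (CDH5) and of 4 adipocyte markers 1 (LEP). In the low list the only markers with a gene-end peak were AIF1 of the myeloid and ADIPOQ of the adipocyte list. Of all coding genes 18.4% had a high-list and 3.58% a low-list gene-end peak, and nothing on cell content is read from these small counts.

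At gene ends, the members as a whole stood close to other genes in the high bile acid liver. A gene-end peak had at least 1 bp within 1 kb on either side of either end of the gene. As the annotation used gives no strand, the end with the start site was not told from the other. In the high list 12 of the 66 members (18.2%; exact binomial 95% interval 9.76 to 29.6%) carried one, against 18.4% of all coding genes. In the low list 4 did (6.06%; 1.68 to 14.8%), against 3.58% of all coding genes. Peroxisomal members had 6 of 25 in the high list (24%; 9.36 to 45.1%), and mitochondrial enzymes 2 of 21 (9.52%; 1.17 to 30.4%), which share 1 peak. The remaining members had 4 of 20 (20%; 5.73 to 43.7%). In the low list the counts were 1 peroxisomal, 2 mitochondrial and 1 other member. All these intervals include the percentage of all coding genes in the same list. When the high list was shortened to the length of the low list by keeping its smallest p-values, 5 members kept a gene-end peak (7.58%), against 5.19% of all coding genes. These were ACAA1, ACOX3, CPT1C, FABP1 and PEX26, and no mitochondrial member was among them.

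Gene bodies and the 10 kb around them gave a similar picture. In the high list 25 members (37.9%; 26.2 to 50.7%) had a peak that touched the gene body, against 45.4% of all coding genes, and 42 (63.6%; 50.9 to 75.1%) had a peak within 10 kb, against 62.8%. In the low list the numbers were 9 (13.6%; 6.43 to 24.3%) against 15.1% for bodies, and 12 (18.2%; 9.76 to 29.6%) against 22% within 10 kb. Long genes hold more peaks. When all coding genes were put into 10 equal classes by length, genes of the members' own classes had a body peak in 42.9% (high list) and 12.1% (low list) of cases. With the high list at the length of the low list, 11 members had a body peak (16.7%) and 17 a peak within 10 kb (25.8%), against 16.1% and 24.1% of all coding genes. Over the full list the order of the compartments for body peaks was the reverse of that at gene ends: 10 of 21 mitochondrial enzymes had a high-list body peak (47.6%; 25.7 to 70.2%), against 8 of 25 peroxisomal members (32%; 14.9 to 53.5%). The wide overlap of these intervals leaves the order unresolved.

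**Figure D1:**
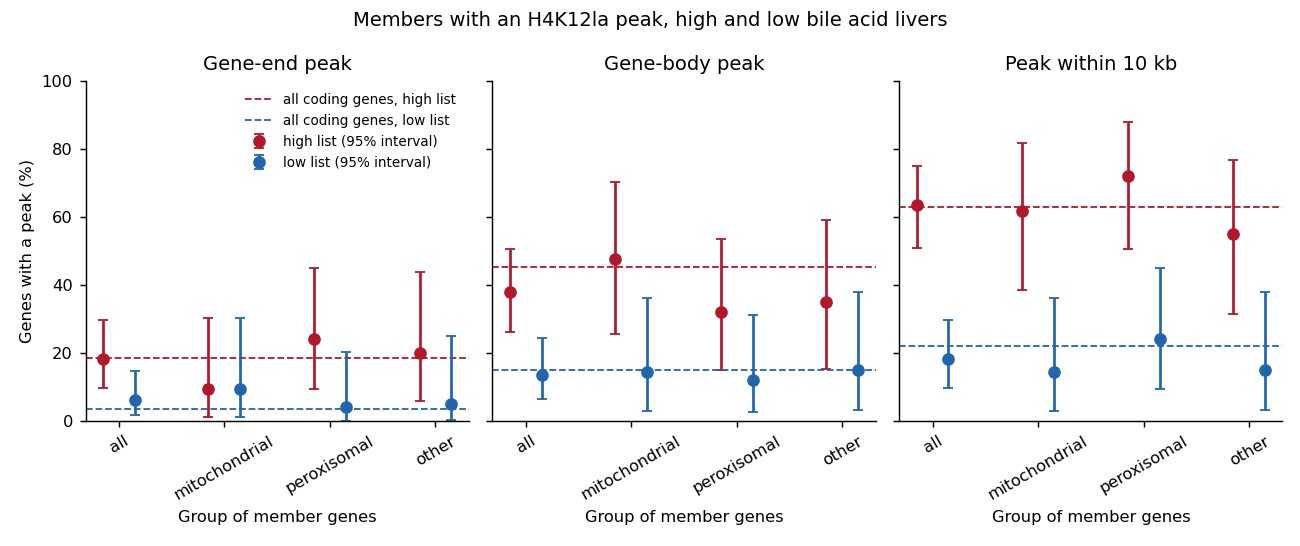
Percentage of member genes with a gene-end peak, a body peak or a peak within 10 kb (y axis) for all 66 members and by compartment (x axis), high list in red and low list in blue, with exact binomial 95% intervals; dashed lines give all 16303 coding genes. Every interval includes its dashed line, for example 18.2% of members against 18.4% of all coding genes for high-list gene ends.

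Mitochondrial beta-oxidation begins with the carnitine shuttle. CPT1A, the liver form of the outer-membrane carnitine palmitoyltransferase and the rate-limiting step of long-chain oxidation, had 1 high-list peak inside the gene at chr2:4266543-4267096, of fold 3.68 (q 0.139) on 10 fragments, and no low-list peak within 10 kb. CPT2, the inner-membrane enzyme that returns the acyl group to CoA, showed the reverse. It had 2 low-list peaks, at chr6:159060524-159061094 with a fold of 3.63 and at chr6:159061610-159062004 with a fold of 3.74, on 12 fragments each. Their summits lay 519 and 538 bp on either side of the upper end of the gene. The nearest high-list peak was 16378 bp away. Both CPT2 peaks had a q of 1, and scaled to the depth of the high library their 95% interval (5.58 to 18.8 fragments) reached below the 6 fragments that a call there would have needed. The absence of CPT2 from the high list therefore does not show a difference. CPT1B, the muscle form, was without a peak within 10 kb in both lists.

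The acyl-CoA dehydrogenases carry out the first oxidation, each on a range of chain lengths. ACADVL, for very long chains, had 1 high-list peak inside the gene, of fold 3.01, and 3 beyond its upper end. The strongest of these, 6454 bp outside at chr12:52588209-52588676, had a fold of 4.05 (q 0.0478) on 12 fragments, the highest fold of any member in the high list. The other 2 had a fold of 3.69 each and lay at the ends of the neighbouring genes DVL2 and PHF23 or PHF23 alone, so that they belong to those genes as much as to ACADVL. Neighbours were checked by their ends only, so whether the strongest peak lies inside another gene was not determined. ACADL, for long chains, ACAD9, which also serves the assembly of respiratory complex I, and ACAD10 had a high-list body peak each and no low-list peak. ACADS, for short chains, had no high-list peak and 1 low-list peak at its upper end, at chr14:40656113-40656468, of fold 2.53 (q 1) on 8 fragments. ACADM, for medium chains, ACADSB and ACAD8, which act on branched-chain amino acids, lacked any called peak within 10 kb.

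All 8 mitochondrial genes for the later steps of the cycle had a high-list peak within 10 kb, and 5 had one in the body, while 1 had a low-list peak. The group is small. Of all coding genes 62.8% have a high-list peak within 10 kb, 45.4% a high-list body peak and 22% a low-list peak within 10 kb. HADHB is among the 8 only through a peak that it shares with HADHA. HADHA and HADHB encode the alpha and beta subunits of the trifunctional protein, which performs the last 3 reactions on long chains. They lie 221 bp apart and shared the 1 high-list gene-end peak of the mitochondrial group, at chr3:112753130-112753600, which starts in the gap and reaches into HADHA. Its fold was 2.78 (q 0.381), on 8 fragments (exact Poisson 95% interval 3.45 to 15.8) where 2.24 were expected. Inside HADHA lay 2 further high-list peaks, of fold 3.31 and 3.64, the latter with a q of 0.0735 on 13 fragments. HADHB held the strongest low-list peak of any member, at chr3:112738284-112738720, 14410 bp from the shared high-list peak, with a fold of 4.23 (q 0.318) on 14 fragments (7.65 to 23.5) where 2.44 were expected. Scaled to the depth of the high library, that interval began at 6.88 fragments. A call in the high library over the same relative background needed 6. Of the 13 low-list and 84 high-list peaks of the members, it was the only one whose interval stayed above the other library's limit. The high library's own count and local background there are not in the lists, so the libraries were not compared directly at this site.

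The other genes of these steps had high-list peaks only. ECHDC2, a hydratase-like gene, had a body peak at chr6:159332091-159332424 of fold 3.98 and q 0.0399, on 13 fragments. Together with the ACADVL flank it made the 2 member peaks with q under 0.05, and neither was at a gene end. These 2 members are 3.03% of the 66, and 3.6% of all coding genes have such a peak within 10 kb. ECI1, the isomerase that moves double bonds of unsaturated chains, had 2 body peaks and 2 flanking peaks, the strongest of fold 3.55. ECHDC3 had a single peak of fold 3.70 (q 0.101), 5936 bp beyond its lower end. ECHS1, the short-chain hydratase, and ACAA2, the mitochondrial thiolase, each had 1 body peak, and HADH, the dehydrogenase for medium and short chains, 1 flanking peak. The thioesterases ACOT9 and ACOT13 lacked one in both lists.

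**Figure D2:**
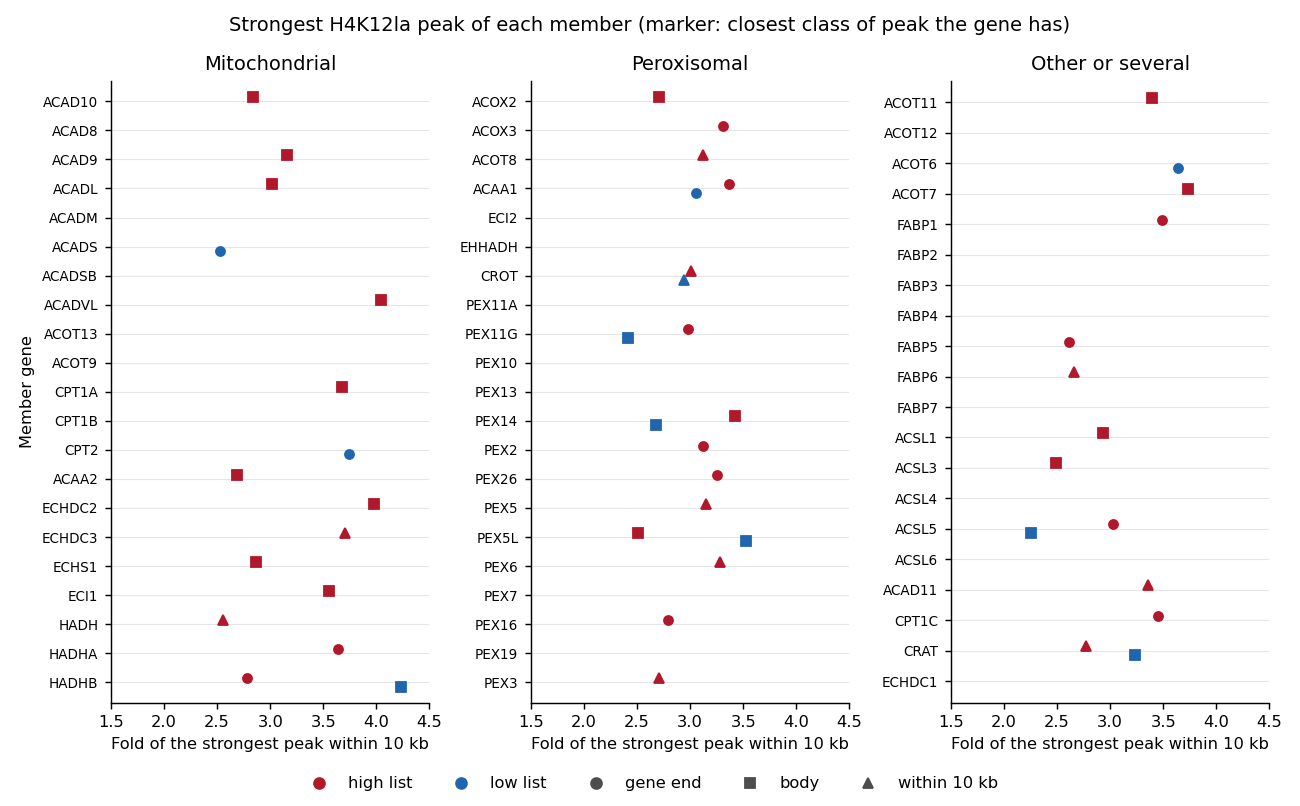
Fold of the strongest peak within 10 kb (x axis, authors' fold at the summit) for 62 of the 66 members (y axis), by compartment, high list in red and low list in blue; the marker shape gives the closest class of peak the gene has, and a gene without a marker had no peak. High-list values run up to 4.05 at ACADVL and low-list values up to 4.23 at HADHB.

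Peroxisomal beta-oxidation begins with the acyl-CoA oxidases. ACOX3, which acts on branched chains, carried a high-list peak at its lower end, at chr8:2716968-2717315, with the summit 245 bp inside the gene, a fold of 3.31 (q 0.195) and 10 fragments. ACOX2, the oxidase of bile acid precursors, had 2 body peaks, the stronger of fold 2.71. Neither had a low-list peak within 10 kb.

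ACAA1, the peroxisomal thiolase that closes each round, was the only member called at a gene end in both livers. The high-list peak, chr13:23019592-23020465, of fold 3.37 (q 0.168) on 10 fragments, spans the upper end of the gene. The low-list peak, chr13:23020756-23021286, of fold 3.05 (q 1) on 10 fragments, begins 291 bp beyond the high-list peak and 618 bp outside the gene. The peaks do not overlap, and both also lie within 1 kb of an end of OXSR1, a stress-responsive kinase gene. A second high-list peak in ACAA1, of fold 2.94, lies at an end of MYD88. EHHADH, the bifunctional enzyme between the oxidase and the thiolase, and ECI2, an isomerase, had none within 10 kb in the high or the low list.

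Shortened chains leave the peroxisome as carnitine esters or free acids. CROT, the carnitine octanoyltransferase, had 1 high-list peak 1037 bp outside its lower end, of fold 3.01 (q 0.33), which lies at an end of ABCB4, and 1 low-list peak 9671 bp outside its upper end, of fold 2.94 (q 1). ACOT8, a peroxisomal thioesterase, had a high-list peak of fold 3.12 that began 3559 bp below the gene. Neither gene had a peak inside it.

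The peroxins had 4 of 17 genes with a high-list gene-end peak (23.5%; 6.81 to 49.9%) and 0 with a low-list one, against 18.4% and 3.58% of all coding genes. For the low list a count of 0 of 17 leaves room for a share of up to 19.5% by the exact interval. A high-list body peak was found in 4 of 17 peroxins (23.5%; 6.81 to 49.9%), against 45.4% of all coding genes. A low-list body peak was found in 3 (17.6%; 3.8 to 43.4%), against 15.1%. These intervals include the share of all coding genes. Among the genes for matrix import, PEX26, the membrane anchor of the ATPases that recycle the import receptor, had a peak just inside each end. These were chr5:70133289-70133914, of fold 3.25 (q 0.222) on 10 fragments, which also lies at an end of MICAL3, and chr5:70141617-70142300, of fold 2.96 on 9 fragments. PEX2, a ubiquitin ligase subunit that recycles the import receptor, had 1 peak 570 bp outside its lower end, at chr4:59251318-59251760, of fold 3.12 (q 0.232). The nearest low-list peak lay 139922 bp from PEX26 and 614493 bp from PEX2.

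PEX16, which acts in membrane assembly, had a high-list peak 399 bp outside its lower end, at chr2:16554314-16554646, of fold 2.79 (q 0.303) on 11 fragments. PEX11G, which takes part in peroxisome division, had one beyond each end, at chr2:71638011-71638419 with a fold of 2.98 and at chr2:71649565-71650153 with a fold of 2.80, the latter also at an end of ARHGEF18. Its 1 low-list peak, of fold 2.42, lay inside the gene, 1456 bp from the nearer of these. No other peroxin had a gene-end peak.

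PEX14, a docking subunit of the import pore and 134204 bp long, held 5 high-list body peaks, of fold 1.91 to 3.42, and 1 low-list body peak of fold 2.68. PEX5L, a relative of the import receptor PEX5 known mainly from brain, spans 256185 bp and held 1 body peak in each list, 31255 bp apart, of fold 2.51 in the high and 3.52 in the low list. PEX6, with a fold of 3.28, PEX5, with 3.15, and PEX3 had a flanking high-list peak only, and PEX7, PEX10, PEX11A, PEX13 and PEX19 had none at all.

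**Figure D3:**
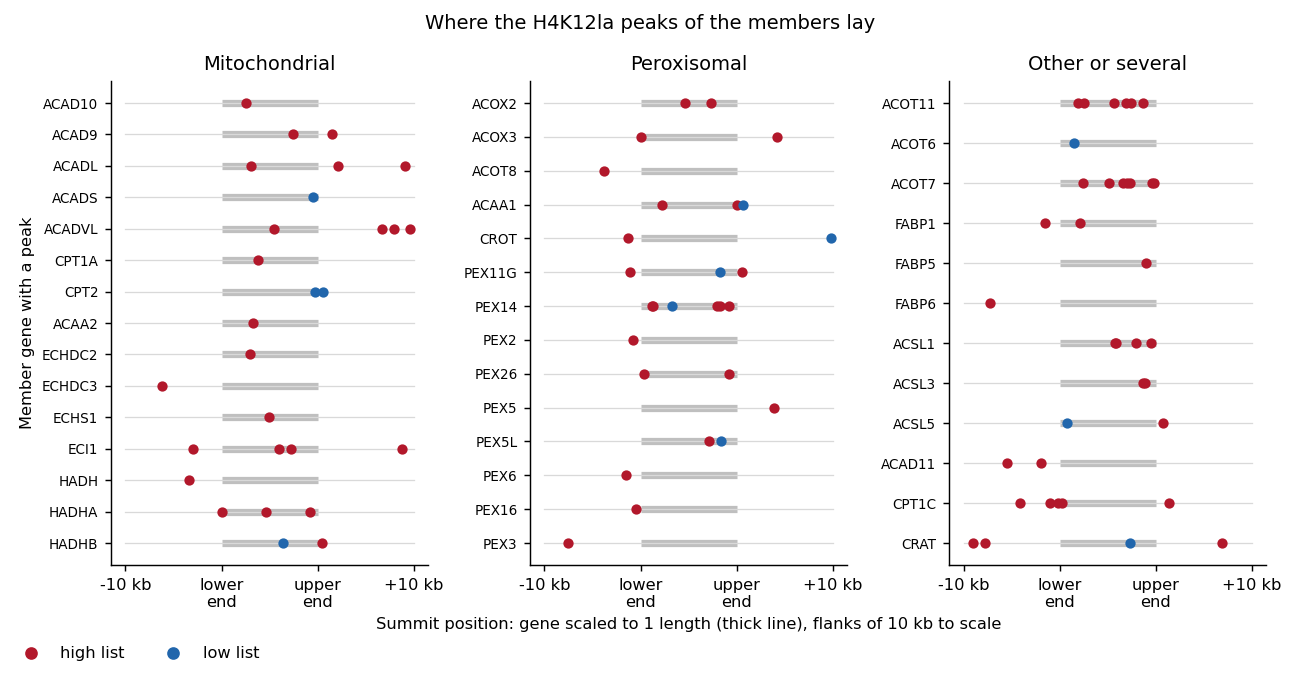
Summit positions of all peaks within 10 kb for 41 of the 45 members that have any, with each gene scaled to the same length (thick line between the lower and upper end by coordinate) and 10 kb flanks drawn to scale; high list in red, low list in blue. The 2 low-list peaks of CPT2 straddle its upper end, and high- and low-list peaks lie side by side at the upper end of ACAA1.

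Fatty acid binding proteins carry fatty acids in the cytosol. FABP1, the liver form, had a high-list peak at chr3:57851301-57851595, of fold 3.49 (q 0.139) on 11 fragments, with the summit 958 bp inside its lower end, and a flanking peak of fold 2.37. FABP5, the epidermal form, had one near its upper end, at chr4:55281825-55282248, of fold 2.61 (q 0.258). FABP5 had the most fragments of any high-list gene-end peak of the members, 14, but also the highest expected number, 4.75. In genes as short as these, 4456 and 4755 bp, the gene-end windows cover a large part of the gene, though not most of it. FABP6, the ileal bile acid binding protein, had 1 high-list peak 7001 bp outside, at an end of CCNJL. FABP2, FABP3, FABP4 and FABP7 had none, and no FABP gene had a low-list peak within 10 kb.

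Acyl-CoA synthetases activate long-chain fatty acids. ACSL5 had a high-list peak 681 bp outside its upper end, at chr14:122828735-122829029, of fold 3.03 (q 0.232), and a low-list body peak of fold 2.25 near the opposite end, 47691 bp from it. ACSL1, the main synthetase of liver, had 4 high-list body peaks, of fold 2.60 to 2.93, and ACSL3 had 2. ACSL4, on chromosome X, and ACSL6 lacked a peak within 10 kb in both.

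CPT1C, the brain form of carnitine palmitoyltransferase, carried 3 separate high-list peaks within 1 kb of its lower end, of fold 2.37, 2.89 and 3.41, and 2 flanking ones, which is the largest number of gene-end peaks of any member. The strongest of the 3, chr6:54732953-54733317, had a q of 0.139 on 11 fragments. All 3 also lie near an end of ADM5, so the cluster cannot be assigned to CPT1C alone. CRAT, the carnitine acetyltransferase of mitochondria and peroxisomes, had a low-list body peak of fold 3.23 (q 1) and 3 high-list peaks outside the gene, of fold 2.08 to 2.77. ACAD11 had 2 flanking high-list peaks, of fold 3.36 each, and ECHDC1 had none.

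The thioesterases ACOT7 and ACOT11, which release free fatty acids from CoA in the cytosol, held the most high-list body peaks of the members. ACOT7, 101670 bp long, had 7, of fold 2.34 to 3.73, and ACOT11, 82364 bp long, had 6, of fold 2.27 to 3.39. As many or more were found in 2.27% of coding genes in the length class of ACOT7 and in 1.6% of those in the class of ACOT11. Neither had a low-list peak within 10 kb, and these shares were computed after the counts were seen. Together they held 13 of the 51 high-list body peaks of all members. ACOT6 had no high-list peak and 1 low-list peak near its lower end, at chr7:96985313-96985651, of fold 3.64 (q 1) on 11 fragments. ACOT12 had none.

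**Figure D4:**
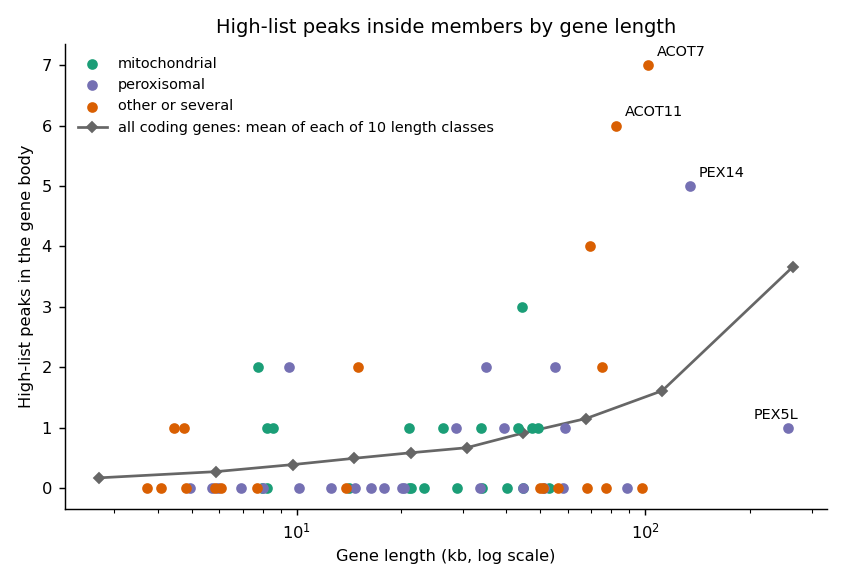
Number of high-list peaks in the gene body (y axis) against gene length in kb (x axis, log scale) for the 66 members, colored by compartment; the gray line gives the mean of all coding genes in each of 10 length classes. ACOT7 with 7 and ACOT11 with 6 lie farthest above the line, and PEX5L with 1 lies below it.

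Members with peaks in the high and the low list were compared directly. Of the 66 genes, 33 had a peak within 10 kb in the high list only, 3 (ACADS, ACOT6 and CPT2) in the low list only, 9 in both and 21 in neither. These are 50%, 4.55%, 13.6% and 31.8% of the members, and the same classes held 46.2%, 5.42%, 16.6% and 31.8% of all coding genes, so the split was close to the background. At none of the 9 did a high-list and a low-list peak overlap (exact binomial 95% interval 0 to 33.6%). Of the 2706 coding genes with a peak in both lists 7.13% had such an overlap, so nothing particular to the members is read from the count of 0. The closest pair was the one at ACAA1. The 84 distinct high-list peaks of the members had a median fold of 2.86, against 2.90 in the whole list, and the 13 low-list peaks one of 3.05, against 2.98. No low-list peak of a member had a q under 0.05. For all 84 high-list peaks the 95% interval of the fragment number, scaled to the depth of the low library, reached below the fewest fragments needed for a call there. The 33 genes called in the high list only are thus a difference of calls and not a shown difference in the mark.

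**Figure D5:**
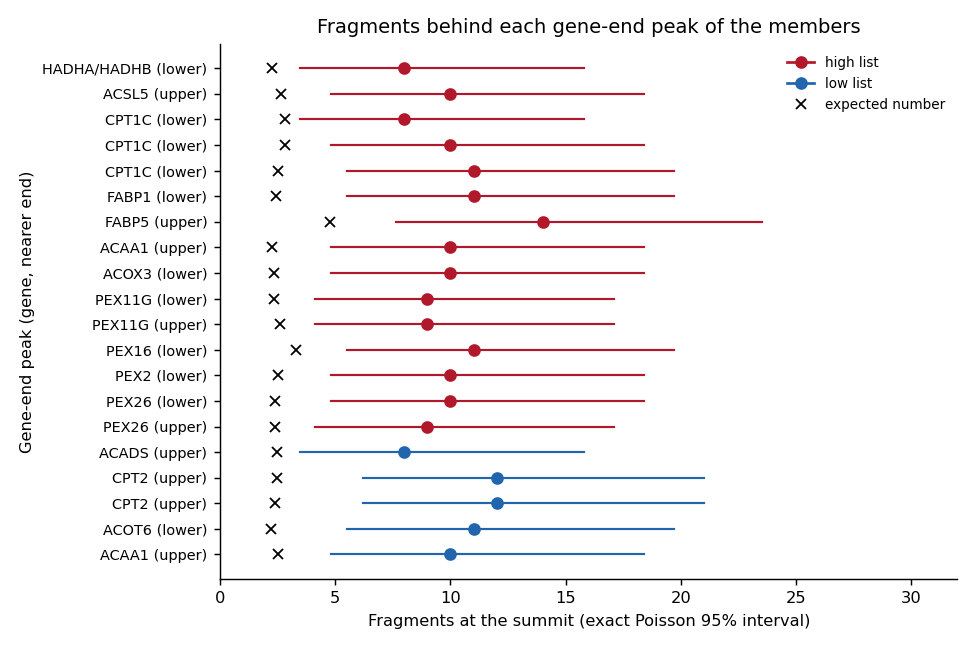
Fragments at the summit (x axis) of the 15 high-list (red) and 5 low-list (blue) gene-end peaks of the members, with exact Poisson 95% intervals for counting error only; crosses mark the number expected from the background, and the y axis names the gene and its nearer end (lower or upper by coordinate). All peaks rest on 8 to 14 fragments, with intervals that overlap between the lists.

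Other genes of the same pathways, from lists set by function, were counted in the same way. Of 71 listed genes 69 were found. A high-list gene-end peak was present at 23 (33.3%; 22.4 to 45.7%) against 18.4% of all coding genes, and a low-list one at 6 (8.7%; 3.26 to 18%) against 3.58%. Body peaks were present at 37 in the high list (53.6%; 41.2 to 65.7%) against 45.4%, and at 19 in the low list (27.5%; 17.5 to 39.6%) against 15.1%. Within 10 kb the numbers were 48 (69.6%; 57.3 to 80.1%) against 62.8%, and 23 (33.3%; 22.4 to 45.7%) against 22%. Gene length was not taken into account for these lists. No chance test was made of these lists, which were drawn up with earlier results of these data known, so nothing particular to them is read from the counts. Of 28 further peroxisomal genes, 9 had a high-list gene-end peak. They were led by PHYH, the hydroxylase that starts phytanic acid breakdown, with a fold of 3.98 (q 0.0735), HSD17B4, the bifunctional enzyme for branched chains, with 3.38, and PECR, an enoyl-CoA reductase, with 3.17, and the others were HAO2, ACBD5, AGXT, LONP2, SCP2 and AMACR. ACBD5, which ties peroxisomes to the endoplasmic reticulum, was the only one with overlapping gene-end peaks in both lists, of fold 2.68 in the high and 3.04 in the low list. NUDT19 and PXMP4 had a low-list gene-end peak, of fold 2.89 and 2.42. PXMP4 also had high-list peaks just outside or beyond that window. A peak of fold 2.80 lay 1019 bp outside its lower end, 688 bp from the low-list peak. Another, of fold 4.26 (q 0.0179) on 14 fragments, lay 5149 bp outside its upper end, at an end of ZNF341.

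Of 12 mitochondrial genes for carnitine transport, electron transfer and auxiliary steps, 4 had a high-list gene-end peak and 1 a low-list one. The 4 were PCCB with a fold of 3.68, ETFDH with 3.31, MCEE with 3.20 and ETFB. The peaks of ETFDH, MCEE and ETFB also lie at an end of C8H4orf46, MPHOSPH10 and VSIG10L, respectively. The low-list gene was SLC25A20, the carnitine-acylcarnitine carrier that works between CPT1 and CPT2, with a fold of 3.43 (q 1) on 13 fragments. Like CPT2 it had no high-list gene-end peak. Scaled to the depth of the high library, its 95% interval (6.22 to 20 fragments) reached below the 7 needed for a call there. Its absence at the gene end in the high list therefore does not show a difference either. None of the 5 ketone body genes had a gene-end peak in either list. A body peak was found at 2 of them in each list, where 45.4% (high) and 15.1% (low) of all coding genes had one. Of 8 genes for fatty acid uptake and activation, 3 had a high-list gene-end peak, SLC27A1 with a fold of 4.05 (q 0.0478), SLC27A2 with 3.39 and SLC27A5 with 3.23. These lists are small, and 18.4% of all coding genes had a high-list and 3.58% a low-list gene-end peak.

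Of 16 transcriptional regulators of oxidation, 7 had a high-list gene-end peak and 2 a low-list one, where 18.4% and 3.58% of all coding genes had one. As for the other lists, nothing particular to the regulators is read from these counts. NCOR1, a corepressor, had a fold of 3.61, PPARGC1B, a coactivator, 3.36 and ESRRA, an orphan nuclear receptor, 3.25, and the others included CREB3L3, PPARG and PPARD. In the low list PPARA, which encodes the main hepatic receptor of this programme, had a fold of 3.37 (q 1) on 13 fragments, and RXRB, a partner of the PPAR receptors, had 2.57. The PPARA peak, chr5:3322031-3322601, was overlapped by a high-list peak, chr5:3322417-3322711, of fold 3.05 (q 0.232), which begins just beyond the 1 kb window and so is not counted at the gene end. On chromosome 6 CPT2, SCP2 and ECHDC2 lie in this order, with gaps of 130 kb and 11.2 kb, the first with low-list gene-end peaks, the second with a high-list gene-end peak and the third with a high-list body peak.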

How the data were processed

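Per the submitters' processing notes, reads were handled with MACS2 2.1.0 after Bowtie 1.1.2, Trimmomatic 0.33 and bcl2fastq 2.17; builds named there are hg38 and Sscrofa11.1, and pig chromosome names and coordinates (1 to 18, X and Y) were used here. Per the labels' protocols, chromatin was fixed in 1% formaldehyde, 10 ng of DNA entered each library and fragments of 250 to 450 bp were selected after 13 cycles. The deposited fold is a ratio to the expected background, taken here with 1 added to both numbers. The deposited −log10 p-value and −log10 q-value are those of the authors' caller for each library alone. The deposited score was not used. Which cutoff the caller used is not stated in the labels; p-values ran up to 0.00989 in each list. Genes came from RefSeq Sscrofa11.1 (28210 annotated, 16303 coding with a symbol). No sequence, strand or exon annotation was used, so promoters, exons and introns were not told apart.

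A peak was assigned to a gene by an overlap of at least 1 bp. Fragment and expected numbers were solved from fold and p-value, with whole numbers for 100% of high-list and 99.98% of low-list peaks (tolerance 0.002 in −log10 p); the low library's pileup had been multiplied by 0.881. Depth, as the ratio of genome-wide background fragments, was 0.899 in the high against the low library, and limits for a call used a p of 0.01. Binomial and Poisson 95% intervals are exact and reflect counting error alone: without molecular identifiers, PCR copies can inflate fragment counts. No test between groups was run, each being 1 library. The counting and the recovery were tested on simulated data. Values were given for members with a gene-end peak, for the 5 highest folds per compartment among the others, and for up to 3 genes per further list; other values were chosen after they were seen. A few genes are counted but not reported here by name. The members and lists were chosen with earlier results of these data known. Python 3.11.15, NumPy 2.4.6, pandas 2.3.3 and SciPy 1.17.1 were used.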

Additional observations from a re-analysis of the deposited data

How the results depend on the processing

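No paired analysis was possible because the antibody libraries number 1 in each group. Requiring the summit, not any overlap, to lie in the window left all 6 counts of members unchanged. With q under 0.05, members with a gene-end peak, a body peak and a peak within 10 kb numbered 0, 1 and 2 in the high list (0.816%, 2.16% and 3.6% of all coding genes) and 0, 0 and 0 in the low list (0%, 0.0307% and 0.0613%). With a fold of 4 or more they numbered 0, 0 and 1 in the high list (0.994%, 2.93% and 4.65%) and 0, 1 and 1 in the low list (0.092%, 0.233% and 0.337%). With the high list shortened to the 5735 peaks of smallest p, they numbered 5, 11 and 17 (7.58%, 16.7% and 25.8% of members against 5.19%, 16.1% and 24.1% of all coding genes); the 5 were ACAA1, ACOX3, CPT1C, FABP1 and PEX26, and no mitochondrial member was left at a gene end. With a gene-end window of 3 kb, 20 members had a high-list peak (30.3% against 31.3%) and 5 a low-list peak (7.58% against 6.66%). Shorter lists and wider windows change these counts by construction. The planned restriction to gene starts was not run, as no strand was used. Peaks of members rest on 6 to 14 fragments, and depth limits each call.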
